A study of Mus musculus with 12 samples.

Results

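The 10 genes described here belong to the Nodal and Activin signalling pathway and were chosen by name: the ligand Nodal, its secreted inhibitors Lefty1 and Lefty2, the co-receptor Tdgf1, the receptors Acvr1b and Acvr2b, the transducers Smad2 and Smad3, and the intracellular inhibitors Smad7 and Skil. They are 10 of the 51467 genes in the deposited table, and each symbol matched 1 gene ID. RNA was measured in mouse embryonic stem cells (ESCs) and in epiblast-like cells (EpiLCs) made from them. ESCs were grown with serum, LIF and 2i, a pair of inhibitors of MEK (PD0325901) and GSK3 (CHIR99021), which keeps them in the naive state. EpiLCs were taken about 56 h after LIF and 2i were withdrawn from such ESCs, and no gene was targeted and no Activin was named as added in either group. Cultures of both kinds were fed 500 µM 4-thiouridine (4sU) for 30 min. Ribosomal RNA was removed from one share of the extracted RNA (total libraries), and 4sU-labelled RNA was captured from another through biotin (4sU libraries, a measure of nascent RNA), with 3 libraries in each of the 4 groups. The study used V6.5 mouse ESCs and, for this differentiation, a system with fluorescent reporters of microRNA loci, and it calls its replicates biological. The labels number the libraries 1 to 3 without saying what a number stands for, and p-values measure the spread between these libraries.

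Nodal is a secreted ligand of the TGF-beta family. It binds type I and type II activin receptors (Acvr1b, Acvr2a and Acvr2b) together with the co-receptor Tdgf1 (Cripto), and the activated receptor phosphorylates Smad2 and Smad3, which enter the nucleus with Smad4 and act on target genes with partners such as Foxh1. Lefty1 and Lefty2 are both targets and secreted inhibitors of the pathway, Smad7 blocks the receptors and is induced by them, and Skil (SnoN) is a nuclear corepressor of the Smads. In the mouse epiblast the pathway maintains pluripotency after implantation and later patterns the primitive streak.

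Library totals ran from 9300845 to 21975684 reads (total) and from 3097693 to 5385644 reads (4sU), so counting error weighs more on the nascent values. Levels are given as CPM, read counts scaled to a common library size with the trimmed mean of M values. Cell identity was checked with marker lists. All 6 naive markers were called lower in EpiLC total RNA (log2 changes of -7.15 to -4.05), and 5 of 6 formative markers were called higher. Summed markers of other cell types were low in ESC total RNA for primitive endoderm (5.04 to 11.9 CPM) and fibroblasts (3.88 to 4.68 CPM, with Dcn and Postn at 0 reads). In EpiLC total RNA these sums were 18.2 to 21.3 and 14.6 to 18.9 CPM. The trophoblast sum was 42.7 to 43.7 CPM in ESCs and 11.3 to 12.9 CPM in EpiLCs, where Tfap2c fell from a mean of 40.1 to 3.89 CPM and Krt7 rose from 1.24 to 5.72 CPM. The neural sum was 105 to 150.1 CPM in ESCs and 471 to 517 CPM in EpiLCs, where Nes rose from a mean of 48.5 to 391 CPM and Tubb3 stood at 57.8 and 48.2 CPM. The part of such cells in the changes below was not tested, and in these bulk samples fewer cells of a type and less RNA per cell cannot be told apart.

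The ESC libraries numbered 3 stood apart from the other ESC libraries for Lefty1 and Lefty2, as described below, so the counts of calls are given with and without them. Their summed naive markers were 2862 CPM in total RNA, against 2648 and 2688 in the others, and 3450 in 4sU RNA, against 4166 and 4295. The total RNA sum hides unlike genes. Tfcp2l1 (1475 CPM) and Klf4 (234 CPM) were at their highest ESC values in total replicate 3. Esrrb (414 CPM), Tbx3 (254.6 CPM) and Nr0b1 (90.6 CPM) were at their lowest. Of the other cell types, the primitive endoderm sum was 11.9 CPM in total RNA, against 5.04 and 6.90, and differed less in 4sU RNA. The trophoblast sum was 68.6 CPM in 4sU RNA, against 46.4 and 53.3. In total RNA the trophoblast sum was not raised, at 42.7 CPM against 43.7 and 43.2. The neural sum was higher in both assays. It was 150.1 CPM in total RNA, against 107.5 and 105, and 111 CPM in 4sU RNA, against 58.5 and 69.4. The neural genes did not move together. Nes (76.3 and 69.96 CPM in total and 4sU RNA) and Sox1 (17.6 and 29.8 CPM) were at their highest ESC values there. Tubb3 (55.25 and 8.68 CPM) and Zfp521 (0.787 and 1.36 CPM) were at their lowest.

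In the mm10 build, Lefty1 (ENSMUSG00000038793.8) lay on the plus strand at chr1:180935022-180938400 and Lefty2 (ENSMUSG00000066652.5) upstream of it on the same strand at chr1:180893108-180899103, each counted over 4 exon blocks. Nodal (ENSMUSG00000037171.6) lay at chr10:61417972-61425338 with 3 exon blocks, Tdgf1 (ENSMUSG00000032494.12) at chr9:110939603-110946158 on the minus strand with 6, and Skil (ENSMUSG00000027660.16) at chr3:31095058-31122577 with 7. Acvr1b (ENSMUSG00000000532.10) lay at chr15:101174067-101213679, Acvr2b (ENSMUSG00000061393.14) at chr9:119402118-119434995, and Smad3 (ENSMUSG00000032402.12) at chr9:63646767-63757994 on the minus strand. No exon of a member overlapped an exon of another gene on either strand. Close copies did exist. Of the 50-base windows of the longest transcripts, 17.9% in Lefty1 were also present in Lefty2 and 12.5% in Tdgf1 in its pseudogene Tdgf1-ps1, and reads from such windows have no unique position, so these 3 genes are counted from the rest of their sequence.

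The study from which these libraries come is about mRNA stability and translation in ESCs and about the microRNAs that act on both, so the members were searched for the seed match of the ESC-enriched family. The miR-290 cluster of naive cells and the miR-302 cluster, which comes on towards the EpiLC state, hold microRNAs that share 1 seed. A mature sequence of each is shown with the seed (bases 2 to 8) in capitals, from RefSeq on GRCm38.p6, followed by the 2 3′ UTR stretches of 30 bases, read from the mm10 genome, that carry the matching heptamer in the inhibitor pair, with that heptamer in capitals.
mmu-miR-291a-3p: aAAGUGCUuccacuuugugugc
mmu-miR-302b-3p: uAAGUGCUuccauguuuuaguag
Lefty1 3′ UTR, chr1:180938201-180938230, plus strand: cactgtatgcgaAGCACTTacatgtataga
Lefty2 3′ UTR, chr1:180897905-180897934, plus strand: tcacccagtttaAGCACTTacatgggtaaa
Both heptamers were followed by the letters acatg. Among 3′ UTRs of similar length, 4.9% held this heptamer at the length of Lefty1 and 14.6% at that of Lefty2. Smad2 held 3 in its long 3′ UTR, where 59.4% of similar ones held at least 1, and the other 7 members held none. That Smad2 3′ UTR had 6233 bases, while 3362 exonic bases of the gene were counted, so part of it lay outside the counted exons. A match is a description of the letters and not evidence of a working site.

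Promoter windows from RefSeq (250 bases before and 50 after a gene's start) were found for 5 members, Nodal, Tdgf1, Acvr1b, Acvr2b and Smad3. They were searched on both strands for the SMAD box CAGAC, the SMAD motif GGCGC and the FOXH1 core TGTNNATT, of which 49.6%, 36.9% and 12.2% of 32851 windows held at least 1. Tdgf1 held 1 SMAD box and 2 FOXH1 cores in a window of 41.7% GC, against a median of 52.7%. Its 250 bases before the start (chr9:110946159-110946408, minus strand, GRCm38.p6) are shown because Tdgf1 was the most abundant member in total RNA and its nascent RNA rose, with the 3 matches in capitals, none of which overlap.
Tdgf1 promoter: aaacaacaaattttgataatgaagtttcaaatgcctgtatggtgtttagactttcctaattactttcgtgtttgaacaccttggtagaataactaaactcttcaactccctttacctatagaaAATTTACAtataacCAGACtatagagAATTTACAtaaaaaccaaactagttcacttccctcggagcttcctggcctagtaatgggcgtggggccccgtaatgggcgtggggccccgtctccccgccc
Acvr2b held 1 SMAD box and 3 GGCGC, and Acvr1b held 8 GGCGC in a window of 79.7% GC. The windows of Nodal and Smad3 held no match to the 3 motifs.

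Compared per kb of counted exon, Tdgf1 was the most abundant member in total RNA of both cell types, at 287 ± 27.1 CPM per kb in ESCs and 645 ± 12.7 in EpiLCs (SD, n = 3). In ESC total RNA Nodal (51.2), Lefty2 (49.1) and Lefty1 (42.1) followed, with ranges that overlapped each other and, through the wide spread of both Lefty genes, that of Skil (22.8). Smad2 (20.6), Smad7 and Acvr1b (17.9 CPM per kb) overlapped their neighbours too, and Acvr2b (8.63) and Smad3 (7.31) were lowest and overlapped. In EpiLC total RNA Lefty1 stood second at 301 ± 9.89 CPM per kb, followed without overlap by Nodal (82.9) and Skil (61.9). Smad7 (25.7) overlapped Lefty2 (24.6), and Acvr2b (20.5) overlapped Smad2 (19.2), while Smad3 (12.4) and Acvr1b (11.5 CPM per kb) did not overlap. The order differed in nascent RNA. Nodal (100.1), Smad7 (93.9) and Tdgf1 (78.7) led the ESC 4sU libraries with overlapping ranges, and Lefty1 (303) and Tdgf1 (295.0) led the EpiLC 4sU libraries, also overlapping, ahead of Nodal (191), Smad7 (159) and Skil (124 CPM per kb).

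**Figure D1:**
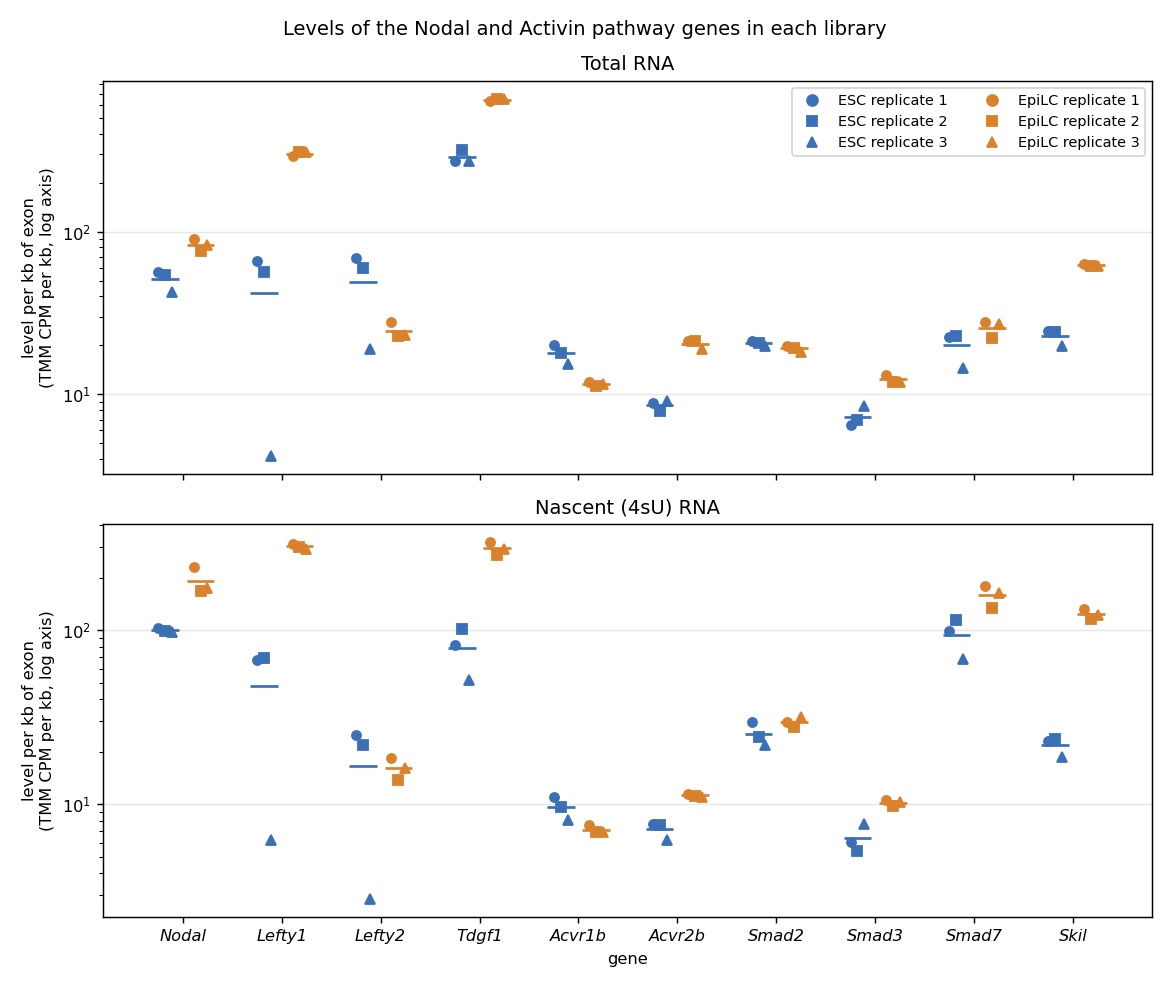
Level of each member per kb of counted exon in every library (CPM scaled by the trimmed mean of M values, log axis), in total RNA (upper panel) and 4sU RNA (lower panel), with ESCs in blue, EpiLCs in orange, a marker shape per replicate number and a bar at the mean of 3. Lefty1 and Lefty2 in ESC replicate 3 lie below the other ESC libraries in both panels, and Lefty1 in EpiLCs averages 301 CPM per kb in total RNA.

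The first comparison asked which members differed in mRNA level between EpiLCs and ESCs. A gene was called when its adjusted p (limma-voom, Benjamini-Hochberg over the 14731 genes with enough reads) was under 0.05 and its absolute log2 change was over 1. All 10 members had enough reads to be tested. Lefty1, Skil, Acvr2b and Tdgf1 were called higher in EpiLCs and 0 were called lower (1 member, Acvr1b, was lower at an unadjusted p under 0.05, and edgeR and DESeq2 called 0), that is 4 of 10, where 27.6% of all genes tested were called, 16.3% as higher and 11.2% as lower. By adjusted p alone 7 of 10 members passed, against 63.5% of all genes. The median log2 change was 0.74 over the members and 0.02 over all genes. In the second comparison, of nascent RNA, 3 members were called, all higher (Lefty1, Skil and Tdgf1), against 25.5% of all genes, 11.9% as higher and 13.5% as lower. By adjusted p alone 8 passed, against 52.5% of all genes, and the medians were 0.74 and -0.09. These 2 comparisons share no library, but the study's methods split each labelled extract into total and 4sU RNA, so they are not taken as independent.

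Nodal RNA was higher in EpiLCs in both assays, by less than the fold used for a call. In total RNA it stood at 118, 114 and 89.7 CPM in the 3 ESC libraries and at 189, 159.9 and 172 CPM in the EpiLC libraries. In 4sU RNA it was 216, 208 and 205.0 CPM in ESCs and 481, 354 and 366 CPM in EpiLCs. The groups did not overlap in either assay. The fitted log2 change was 0.69 (SE 0.12, adjusted p = 0.000161) for mRNA and 0.92 (SE 0.12, adjusted p = 2.84e-05) for nascent RNA. The nascent change passed the fold threshold without EpiLC 4sU replicate 2 (1.01) or 3 (1.04).

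Lefty1 showed the largest fitted rise of the members in both assays, and its ESC libraries differed among themselves more than those of any other member. Both statements include ESC replicate 3, without which the nascent change of Skil (2.37) was above that of Lefty1 (2.12). Total RNA held 107, 91.4 and 6.78 CPM of it in ESCs against 469, 496 and 497 CPM in EpiLCs. The 4sU libraries gave 109.6, 112 and 10.03 CPM in ESCs against 508, 489 and 477 CPM in EpiLCs. All EpiLC libraries were above all ESC libraries, and the low value in each assay was ESC replicate 3. Its mRNA change was 3.43 (SE 0.75, adjusted p = 0.000993), a 10.8-fold rise, and its nascent change was 3.13 (SE 0.87, adjusted p = 0.00775). Without both ESC libraries numbered 3, the changes were 2.30 (SE 0.06) and 2.12 (SE 0.08), 4.91-fold and 4.36-fold, and both were still called.

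Lefty2, the neighbouring gene with the same inhibitory role, was not called, and its result turned on ESC replicate 3. Its total RNA was 170.3, 147 and 46.7 CPM in ESCs and 69.1, 56.8 and 57.0 CPM in EpiLCs. In 4sU RNA the values were 61.5, 54.4 and 7.05 CPM in ESCs and 45.7, 33.9 and 40.1 CPM in EpiLCs. In both assays the EpiLC libraries lay between ESC replicate 3 and the other ESC libraries, so the groups overlapped. The fitted mRNA change was -0.84 (SE 0.47, adjusted p = 0.131) and the nascent change 0.29 (SE 0.71, adjusted p = 0.759). Without both ESC libraries numbered 3 the mRNA change was -1.39 (SE 0.09, adjusted p = 4.78e-11) and was called, and the nascent change was -0.57 (SE 0.14, adjusted p = 0.00196), of the opposite sign. Leaving out ESC total replicate 3 alone gave an mRNA change of -1.39 (adjusted p = 0.00148).

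Without both ESC libraries numbered 3, 5 of 10 members were called for mRNA, against 28.2% of the 14309 genes then tested, since Lefty2 joined Lefty1, Skil, Acvr2b and Tdgf1. The nascent calls were again Lefty1, Skil and Tdgf1, against 24.9% of genes. By adjusted p alone 8 members passed for mRNA and 9 for nascent RNA, against 72.9% and 59.4% of genes. The median over the members was then 0.72 for mRNA and 0.67 for nascent RNA.

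ESC replicate 3 held few Lefty1 reads. Its 69 reads in total RNA gave a 95% Poisson interval of 5.28 to 8.59 CPM and its 37 reads in 4sU RNA one of 7.06 to 13.8 CPM, against intervals of 87.3 to 95.7 and 100.5 to 119 CPM for the lower of the other ESC libraries. These intervals cover counting error only. Relative to the mean of ESC replicates 1 and 2 (log2 scale), Lefty1 was 14.4-fold lower in total RNA and 10.9-fold lower in 4sU RNA. Of the 14731 genes tested, 3 lay lower in total RNA and 10 in 4sU RNA. Lefty2 was 3.39-fold lower in total RNA and 8.07-fold lower in 4sU RNA, at percentiles 0.862 and 0.176 of all genes. The other members differed less. Smad7 was 1.58-fold and 1.56-fold lower, Tdgf1 1.07-fold and 1.78-fold lower, and Nodal 1.29-fold and 1.03-fold lower (total and 4sU RNA), while Smad3 was the one member higher in both assays. Lower values in both assays were found for 8 of 10 members, against 31.2% of all genes, and values over 2-fold lower in both for Lefty1 and Lefty2, against 0.998% of all genes. ESC replicate 3 was singled out by its Lefty1 and Lefty2 values, so nothing is read from these counts. Of the 25 wider pathway genes tested, described below, 12 were lower in both assays in ESC replicate 3 (48.0%, against 31.2% of all genes). T (brachyury), a primitive streak gene, was the 1 of them over 2-fold lower in both. Nes, a gene of the neural list, was higher there, at 76.3 CPM in total RNA against 36.3 and 32.9 in the other ESC libraries. Tubb3 and Zfp521 of that list were lower there, and the part of such genes in the result was not tested.

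**Figure D2:**
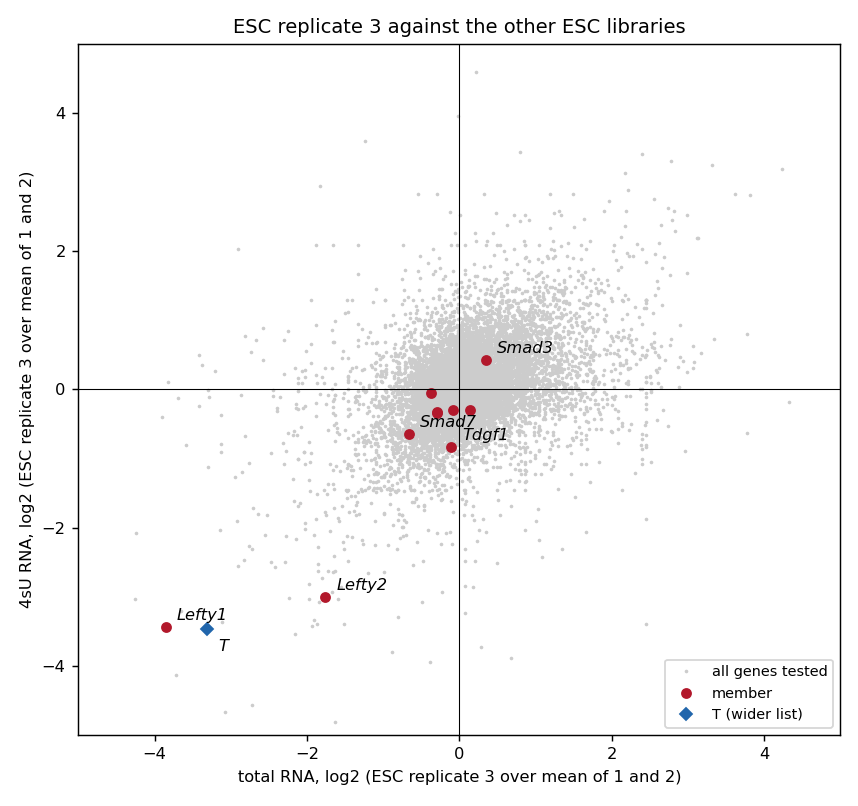
Log2 difference between ESC replicate 3 and the mean of ESC replicates 1 and 2 for every gene tested (grey), in total RNA (x axis) and 4sU RNA (y axis), with the 10 members in red and T in blue (genes beyond the axes are not drawn). Lefty1 lies at -3.85 and -3.45 and Lefty2 at -1.76 and -3.01, away from the other members.

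Tdgf1, the co-receptor, rose in both assays. Total RNA gave 522, 615 and 527 CPM in ESCs and 1217, 1261 and 1258 CPM in EpiLCs. In 4sU RNA the values were 159.7, 197 and 99.5 CPM in ESCs and 622, 522 and 566 CPM in EpiLCs. Every EpiLC library was above every ESC library. The mRNA rose 2.25-fold (log2 change 1.17, SE 0.14, adjusted p = 5.69e-06) and the nascent RNA 3.83-fold (1.94, SE 0.17, adjusted p = 4.62e-07).

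The receptor genes changed with opposite signs. Acvr2b, a type II receptor, had 31.7, 28.1 and 32.7 CPM in ESC total RNA and 76.1, 76.1 and 67.5 CPM in EpiLC total RNA. Its mRNA change was 1.26 (SE 0.09, adjusted p = 1.70e-08), and it was called. Its nascent change was smaller, 0.63 (SE 0.13, adjusted p = 0.000893), from 22.2 to 27.6 CPM in ESCs to 39.5 to 41.0 CPM in EpiLCs. Acvr1b, the type I receptor ALK4, had 89.3, 79.0 and 68.2 CPM in ESC total RNA and 52.2, 49.4 and 51.2 CPM in EpiLC total RNA, without overlap. Its mRNA change was -0.63 (SE 0.10, adjusted p = 9.31e-05) and its nascent change -0.43 (SE 0.15, adjusted p = 0.0263), both short of the fold threshold.

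The fitted changes of the 2 transducers were unlike in total RNA. Smad2 (ENSMUSG00000024563.15, chr18:76241580-76305731) had 71.4, 69.6 and 66.5 CPM in ESCs and 67.1, 64.8 and 61.4 CPM in EpiLCs, with overlap and an mRNA change of -0.10 (SE 0.10, adjusted p = 0.359). Its nascent change was 0.23 (SE 0.11, adjusted p = 0.0897). Smad3 had 33.0, 35.2 and 43.4 CPM in ESC total RNA and 67.4, 60.4 and 60.9 CPM in EpiLC total RNA. The Smad3 groups did not overlap, and the changes were 0.78 for mRNA (SE 0.11, adjusted p = 2.02e-05) and 0.71 for nascent RNA (SE 0.15, adjusted p = 0.00102), under the fold threshold.

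Of the intracellular inhibitors, Skil rose in both assays and Smad7 passed the adjusted p in nascent RNA but not in mRNA. Skil had 164, 162 and 133 CPM in ESC total RNA and 426, 411 and 410.0 CPM in EpiLC total RNA, a change of 1.44 (SE 0.10, adjusted p = 9.08e-09). In 4sU RNA it had 154, 160.1 and 125 CPM in ESCs and 886, 780.1 and 823 CPM in EpiLCs, a change of 2.499 (SE 0.10, adjusted p = 3.25e-10). The nascent rise was 5.66-fold and the mRNA rise 2.72-fold. Smad7 (ENSMUSG00000025880.11, chr18:75367529-75395935) had 98.8, 100.6 and 63.2 CPM in ESC total RNA and 122, 97.0 and 118 CPM in EpiLC total RNA, which overlapped, and its mRNA change was 0.37 (SE 0.20, adjusted p = 0.125). Its 4sU libraries gave 432, 503 and 298 CPM in ESCs and 788, 584 and 720 CPM in EpiLCs, without overlap, and a change of 0.77 (SE 0.19, adjusted p = 0.00352).

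**Figure D3:**
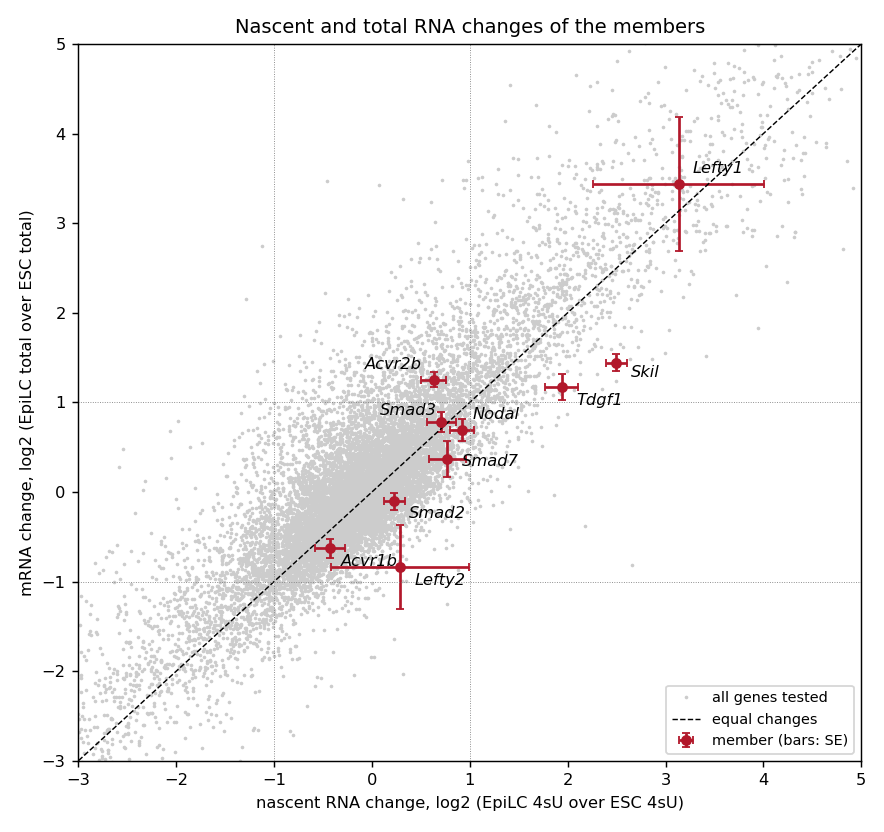
Log2 change of nascent RNA (x axis) against log2 change of mRNA (y axis), EpiLC over ESC, for all genes tested (grey) and the 10 members (red, bars are standard errors), with a dashed line of equal changes and dotted lines at the fold threshold (genes beyond the axes are not drawn). Skil lies below the dashed line at 2.499 and 1.44 and Acvr2b above it at 0.63 and 1.26, and the bars of Lefty1 and Lefty2 are the longest.

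The third comparison, of mRNA stability, took the mRNA change minus the nascent change from the same fit. Skil was the 1 member called, against 1.54% of all genes called in either direction and 0.305% called lower. Its stability change was -1.06 (SE 0.14, adjusted p = 0.00159). With the libraries scaled by their totals alone the value was -0.99 (adjusted p = 0.00165), just short of the fold threshold, while its distance from the median of all genes was -1.17 under each scaling tried. Of all genes, 182 were called higher and 45 lower, and the split was 132 and 66 with median-of-ratios scaling. Acvr2b had a change of the other sign, 0.62 (SE 0.16, adjusted p = 0.0385), under the fold threshold, and in 10 of 12 fits that each left out 1 library its adjusted p was over 0.05, reaching 0.116 without ESC 4sU replicate 2. By adjusted p alone 2 of 10 members passed, against 4.6% of all genes. Tdgf1 stood at -0.77 (SE 0.22, adjusted p = 0.0622) and was called without ESC 4sU replicate 2 (-1.05, adjusted p = 0.0153). Lefty2 stood at -1.12, but with an SE of 0.85 (adjusted p = 0.464). Without both ESC libraries numbered 3, Skil was again the 1 member called (-1.03, adjusted p = 8.68e-07), against 5.44% of all genes, 680 higher and 99 lower. By adjusted p alone 4 members passed in that fit, against 20.4% of all genes. There Acvr2b (0.76, adjusted p = 0.00160), Lefty2 (-0.82, adjusted p = 0.00229) and Tdgf1 (-0.53, adjusted p = 0.00490) passed the adjusted p but not the fold threshold. Lefty1 stood at 0.17 (SE 0.10, adjusted p = 0.238) there, near the median of all genes (0.13), and its difference from Lefty2 was not tested. With the total and 4sU libraries of one cell type and number as pairs in limma-voom, Skil was the 1 member called (-1.06, adjusted p = 9.97e-05). Over all genes 438 were called higher and 90 lower. In that paired fit Lefty2 (-0.97, adjusted p = 0.0101) and Tdgf1 (-0.76, adjusted p = 0.0110) passed the adjusted p but not the fold threshold. The same held for Acvr2b (0.64, adjusted p = 0.0203) and Smad7 (-0.40, adjusted p = 0.0215).

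Relative stability, log2 of total over 4sU RNA, ranged widely among the members. Tdgf1 had 1.71, 1.64 and 2.41 in ESCs for the library pairs numbered 1, 2 and 3, and 0.97, 1.27 and 1.15 in EpiLCs. Its fitted values, 1.90 and 1.13, lay at percentiles 93.3 and 78.8 of all genes tested. The fitted ESC value of Lefty2, 1.74, was close below it, and with 1 library left out at a time the values ran from 1.60 to 2.06 for Tdgf1 and from 0.87 to 2.29 for Lefty2. Smad7 was lowest in both cell types, with fitted values of -2.22 (percentile 15.0) in ESCs and -2.63 (percentile 8.93) in EpiLCs, and its 3 pairs ran from -2.32 to -2.13 and from -2.69 to -2.59. Nodal was also low, at -0.97 (percentile 27.8) and -1.20 (percentile 21.1). Skil had 0.09, 0.02 and 0.09 in ESCs and -1.05, -0.92 and -1.01 in EpiLCs, that is percentiles 50.8 and 23.9, without overlap. Acvr2b had 0.20, 0.05 and 0.56 in ESCs and 0.89, 0.93 and 0.77 in EpiLCs, also without overlap. Lefty2 had 1.47, 1.44 and 2.73 in ESCs, the highest again in the pair numbered 3, and 0.60, 0.74 and 0.51 in EpiLCs. Lefty1 lay near the middle, at fitted values of -0.31 and -0.01 in ESCs and EpiLCs (percentiles 41.2 and 45.3). The median over the members was 0.14 in ESCs and 0.13 in EpiLCs, against 0.03 and 0.15 over all genes, and these medians moved with the scaling, as given in the closing section.

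**Figure D4:**
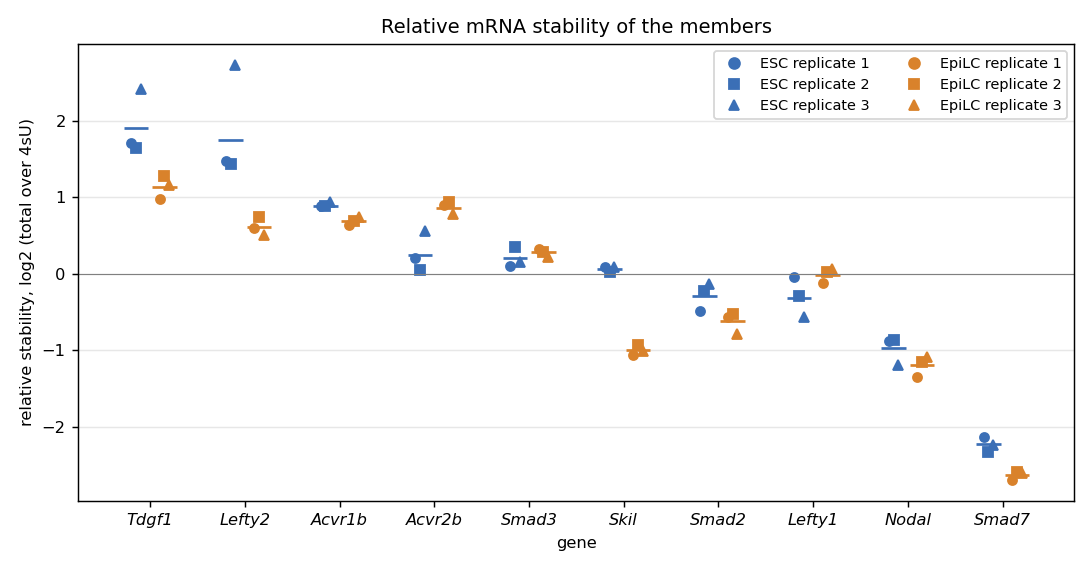
Relative mRNA stability (log2 of total over 4sU) of the members, ordered by the fitted ESC value, for each pair of libraries of one cell type and number (marker shapes), with ESCs in blue, EpiLCs in orange and bars at the fitted value. The fitted value of Tdgf1 is highest and that of Smad7 lowest in both cell types, although Lefty2 (2.73) lies above Tdgf1 (2.41) in the ESC pair numbered 3, and the 3 Skil values in EpiLCs lie below the 3 in ESCs.

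Ratios of paired genes within a library do not depend on the scaling. Each is the ratio of reads per kb with 0.5 reads added to each count, and with 3 libraries against 3 the exact permutation test cannot give a p under 0.1, so no ratio could pass. The 4 ratios in 2 assays gave 8 comparisons, of which 7 did not overlap between the cell types (two-sided exact permutation p = 0.1, adjusted p = 0.114). Single genes often did not overlap either, 68.6% of all genes tested in total RNA and 60.7% in 4sU RNA, so nothing is read from this count. The Lefty pair gave the largest difference. In total RNA the Lefty1 to Lefty2 ratio was 0.955, 0.948 and 0.223 in ESCs and 10.4, 13.3 and 13.3 in EpiLCs. In 4sU RNA it was 2.72, 3.14 and 2.16 in ESCs and 16.9, 21.9 and 18.1 in EpiLCs. The mean log2 ratio differed by 4.38 in total RNA and by 2.84 in 4sU RNA, and ESC replicate 3 was the lowest of each ESC group.

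The ratio of the ligand Nodal to both Lefty genes together was lower in EpiLCs in each assay. It was 0.418, 0.470 and 1.85 in ESC total RNA and 0.284, 0.232 and 0.249 in EpiLC total RNA. The 4sU libraries gave 1.11, 1.09 and 10.7 in ESCs and 0.691, 0.535 and 0.561 in EpiLCs. The log2 difference was -1.49 in total RNA and -1.99 in 4sU RNA, and without the ESC library numbered 3 of that assay it was -0.80 and -0.90. For the transducers the Smad2 to Smad3 ratio was 3.28, 2.99 and 2.32 in ESC total RNA against 1.51, 1.63 and 1.53 in EpiLC total RNA, while the 4sU values overlapped (log2 difference -0.45, two-sided exact permutation p = 0.3). For the type II receptors the ratio of Acvr2a to Acvr2b was 0.449 to 0.564 in ESC and 0.368 to 0.435 in EpiLC total RNA (log2 difference -0.31). In 4sU RNA the difference was positive, 0.41, with 1.02 to 1.15 in ESCs and 1.33 to 1.498 in EpiLCs.

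**Figure D5:**
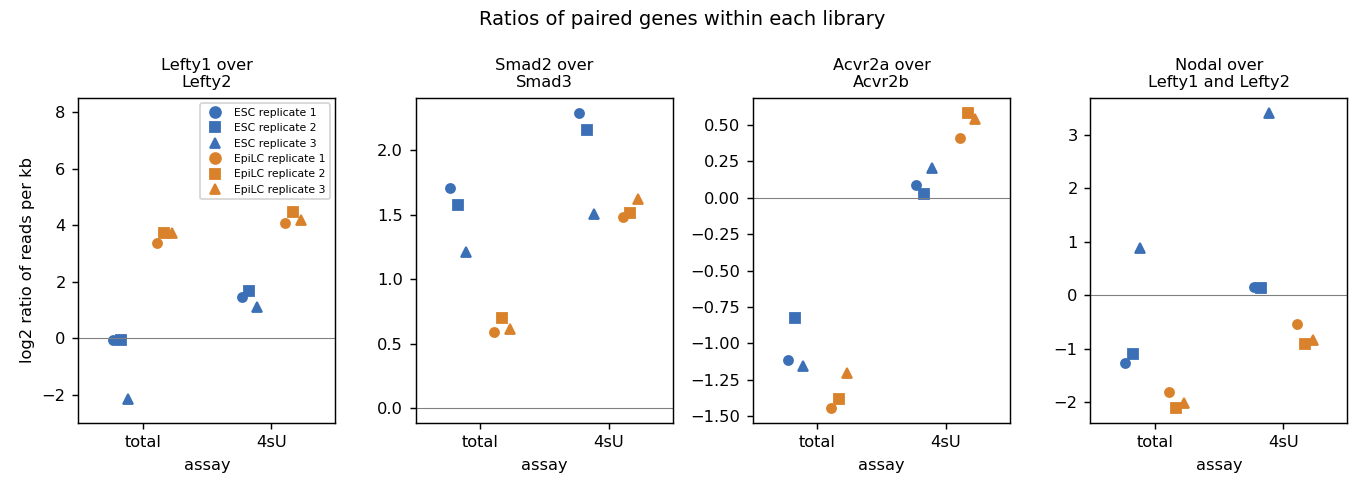
Log2 ratio of reads per kb of paired genes in each library, by assay, with ESCs in blue, EpiLCs in orange and a marker shape per replicate number; each panel has its own y axis. The Lefty1 to Lefty2 ratio is higher in every EpiLC library, by means of 4.38 (total) and 2.84 (4sU), and ESC replicate 3 is the highest value of Nodal over both Lefty genes in each assay.

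A wider list of 33 other genes of the pathway was read in the same fits. Of these, 25 could be tested, and the 8 that could not (Gdf1, Inha, Cfc1, Acvr1c, Cer1, Gsc, Foxa2 and Lhx1) had at most 69 reads in a library. In mRNA 9 of 25 were called, 6 higher and 3 lower, against 27.6% of all genes. In nascent RNA 7 were called, 5 higher and 2 lower, against 25.5% of all genes. Without both ESC libraries numbered 3 these were 6 and 3 in mRNA and 4 and 3 in nascent RNA, against 28.2% and 24.9% of genes called. Inhba, Mixl1, Fstl3 and T were under 3 CPM in every ESC library, so EpiLC libraries alone let them be tested. Inhbb could be tested through ESC libraries alone. The direction of such calls is tied to the read filter, and nothing is read from it. The median mRNA change over the 25 was 0.49, also with Inhba at the bound given next. For stability limma-voom called 0 of the 25, against 1.54% of all genes, with 6 at an unadjusted p under 0.05. The quasi-likelihood test of edgeR called 0 and DESeq2 called 2, and 3 were called by limma-voom without both ESC libraries numbered 3 (Inhbb, Mixl1 and Eomes).

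Of the ligand genes, Inhba and Inhbb are given as values, since the read filter tied their directions. Inhba, the subunit of activin A, had 0 reads in the 3 ESC total libraries and 14 to 17 in the EpiLC total libraries, at least 7.61-fold higher against a floor of 3 reads in each ESC library, and it was called in both assays. Inhbb, the subunit of activin B, fell from between 9.16 and 12.99 CPM to between 0.112 and 0.663 CPM in total RNA (log2 change -4.93, SE 0.50, adjusted p = 7.84e-07), and its nascent change was -2.67. Of the convertases, which cleave the ligand precursors, Pcsk6 fell by 1.55 on the log2 scale in mRNA (adjusted p = 9.66e-08), and Furin had a change of 0.85. Of the activin-binding inhibitors, Fst fell by 1.30 on the log2 scale (adjusted p = 3.36e-05) and Fstl3 rose by 2.31 (adjusted p = 2.20e-05) in mRNA. Acvr2a, the partner receptor of Acvr2b, went from 23.3 to 25.2 CPM in ESCs to 44.5 to 46.7 CPM in EpiLCs, a change of 0.93 (SE 0.08, adjusted p = 1.45e-07), and was called in nascent RNA alone (1.05). Smad4, the common partner of Smad2 and Smad3, had an mRNA change of 0.31 (adjusted p = 0.00871). Foxh1, the DNA-binding partner of the Smads, rose in both assays (1.21 each), as did Pmepa1, an inhibitor that binds the Smads (1.13 in mRNA and 1.07 in nascent RNA). Without both ESC libraries numbered 3, the nascent changes of Pmepa1 (0.92) and Acvr2a (0.98) were under the fold threshold, while Mixl1 (1.06, adjusted p = 0.0174) and Fst (-1.03, adjusted p = 7.98e-05) were called in nascent RNA.

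Of the target genes, Mixl1 and T were called higher from low ESC levels. T had 2.55, 2.27 and 0.197 CPM in ESC total RNA and 8.03, 5.31 and 8.75 CPM in EpiLC total RNA (log2 change 2.35, SE 0.63, adjusted p = 0.00451), and its value without both ESC libraries numbered 3 was 1.56. Mixl1 rose by 2.51 in mRNA but stayed between 2.37 and 3.01 CPM in EpiLCs. Eomes was not called in mRNA (-0.23, adjusted p = 0.551), and Gsc reached 6.78 CPM at most, in ESC replicate 3.

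The genes whose profile over the 12 libraries was most like that of a member were found by the root mean square distance of centred log2 CPM among 9492 protein-coding genes that averaged 10 CPM or more. For Nodal these were Gm47283 (0.16), Gar1 (0.18) and Traf6 (0.19). For Tdgf1 they were Stag2 (0.21), Ccdc91 (0.27) and Gtf2i (0.29). For Lefty1 the nearest genes were farther away, at 0.51 for Nhs, 0.58 for Ccnd2 and 0.63 for Fras1. The 12 libraries fall into 4 groups, so these points are not independent.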

How the data were processed

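Raw counts of reads per gene were deposited, made by the authors from stranded single-end reads: adapters were trimmed (cutadapt 1.14), reads were aligned to mm10 (STAR 2.5.3a, unique positions kept) and counted on the reverse strand (featureCounts 1.5.3) over GENCODE exons without rRNA genes. Unique alignment lowers counts where a gene shares sequence with a copy. The 92 spike-in entries had 0 reads in every library, so no absolute scale was available. A limma-voom model (limma 3.58.1, TMM from edgeR 4.0.16, R 4.3.3) was fitted to all 12 libraries without a replicate block, keeping genes that reached 3 CPM in 3 or more libraries. Limma, the read filter and the interaction term for stability follow the study's methods, which name neither voom nor TMM. Calls needed an adjusted p (Benjamini-Hochberg) below 0.05 with an absolute log2 change above 1. Fits were tested on simulated counts. Ratios were compared by exact permutation tests (Python 3.11.15, scipy 1.17.1).

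The members, the wider list, the markers and the tests were chosen with earlier results of these data known. All 10 members are named, as are all wider-list genes called in any contrast (up to 12, by mRNA change), Acvr2a and Smad4, and for Nodal, Lefty1 and Tdgf1 the 3 most similar genes. A gene of the wider list is not reported here, and counts leave it out. Eomes, Furin and Gsc were named after their values were seen. Alternatives covered scaling, filter, edgeR, DESeq2 1.42.0, sample weights, thresholds, blocks and left-out libraries. The 3′ UTRs came from GENCODE M21 (51274 of the gene IDs), using the longest coding transcript.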

Additional observations from a re-analysis of the deposited data

Results flagged for a closer look

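Of the genes read here, 2 members had a total to 4sU ratio that differed between the cell types by the test of that difference itself, in the fit without pairs of libraries. For Skil the log2 ratio in EpiLCs minus that in ESCs was -1.06 (adjusted p = 0.00159), lower in 3 of 3 EpiLC library pairs. For Acvr2b it was 0.62 (adjusted p = 0.0385), higher in 3 of 3 EpiLC library pairs and under the fold threshold for a call. The Skil value kept an adjusted p under 0.05 in each of 12 fits that left out 1 library, and the Acvr2b value in 2 of 12, with adjusted p-values of 0.0118 to 0.116. Groups of 3 libraries are too small for a test of single outlying libraries, so the low Lefty1 and Lefty2 values of ESC replicate 3 are given as values.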

How the results depend on the processing

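Over all alternatives, 639 of 670 values for the changes of single members kept their direction and their side of the threshold. By adjusted p alone, 7, 8 and 2 members passed for mRNA, nascent RNA and stability, against 63.5%, 52.5% and 4.6% of all genes. Of the 25 wider-list genes tested, 22 passed in mRNA and 22 in nascent RNA, against the same 63.5% and 52.5%. Without the expression filter 12 wider-list genes were called in nascent RNA, where 2848 of all genes were called higher. Genes of few reads enter that fit, so nothing is read from this count. For stability, library totals alone left 0 members called. Wider-list stability calls numbered 2 with DESeq2 and 3 with sample weights, where 738 of all genes were called higher and 108 lower. They numbered 3 without both ESC libraries numbered 3, against 5.44% of all genes. Lefty2 nascent RNA changed sign with edgeR (-0.083), sample weights (-0.16) and without both ESC libraries numbered 3 (-0.57). Stability of Smad3, near 0, changed sign with median-of-ratios scaling (-0.016), no filter (-0.020) and DESeq2 (-0.0054), and that of Lefty1 with sample weights (-0.15). The members' median relative stability, 0.14 in ESCs and 0.13 in EpiLCs, was 0.068 and -0.021 with median-of-ratios scaling, -0.092 and -0.032 with library totals, -0.032 and -0.091 with TMM within each assay, and 0.36 and 0.25 without the filter. The cause of these differences was not tested.

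Leaving out 1 library at a time gave 4 to 5 members called for mRNA, 3 to 4 for nascent RNA and 1 to 2 for stability (2 without ESC 4sU replicate 2), and 0 to 4 wider-list genes for stability (4 without ESC total replicate 3). Lefty1 stayed called, with mRNA changes of 2.30 to 4.01. Lefty2 nascent changes ran from -0.49 to 0.77, Lefty1 stability from -0.81 to 1.18, Smad3 stability from -0.13 to 0.17, and the median stability from 0.015 to 0.18 in ESCs and from 0.006 to 0.14 in EpiLCs. Calls over all genes ranged from 39 to 572 higher and from 21 to 86 lower for stability. Other settings with the fold threshold gave 28 (library totals) to 108 (sample weights) lower and 97 (no filter) to 738 (sample weights) higher, adjusted p alone gave 277 and 401, and no filter gave 4241 higher and 2866 lower in mRNA. The 4sU depth limits genes of few reads, such as T and Mixl1.

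Libraries of the same number deviated together in ESCs (total against 4sU, r of 0.17 to 0.41) but hardly in EpiLCs (0.02 to 0.07), and not between cell types (-0.08 to -0.01), so the numbers were not taken as pairs in the values reported. The study's methods split each labelled extract into total and 4sU RNA, but the labels do not say that a shared number marks 1 extract. Of 6 libraries, 5 in ESCs and 4 in EpiLCs were closest to the other assay's library of their own number. With a replicate block by number, 4, 3 and 1 members were called, 2 wider-list genes were called for stability, and Lefty2 nascent RNA stood at -0.039, while all genes gave 281 higher and 73 lower stability calls. With a replicate block by cell type and number these were 438 and 90.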

Other observations

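Other genes that stood low or high in ESC replicate 3 were listed after the values were seen, among protein-coding genes that averaged 10 CPM or more over the 12 libraries, by the smaller of the log2 differences in total and 4sU RNA from the mean of ESC replicates 1 and 2. Lefty1 came first among the lowest, followed by Cxcl12, Trh, Egr1, Ccnd2, Nrcam, Nhs, Zmat4, Spry4 and Rragb. The genes given with values next were picked by hand from the ranked genes, so no theme is read from them. Egr1, an immediate early gene of the ERK pathway, had 714 and 541 CPM in ESC 4sU replicates 1 and 2 and 24.4 CPM in replicate 3. Spry4, a feedback inhibitor of ERK signalling, had 97.7, 106 and 17.9 CPM in the same libraries, and Trh, which encodes thyrotropin-releasing hormone, had 120.4, 99.8 and 12.6 CPM in ESC total RNA. The highest began with Hist1h4n, Gsto1, Sema5a and Npr3. Gsto1 had 165 CPM in ESC total replicate 3 against 32.6 and 39.5, and Npr3 had 81.1 CPM against 15.5 and 18.02. What sets this culture or its libraries apart was not tested.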
